A study of Sus scrofa with 35 samples.

Results

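The immunoglobulin chain probes of a pig expression array were examined in whole blood of 35 castrated male pigs. They were found from the array's own annotation, as probes whose description named an immunoglobulin or Ig chain together with a heavy, light, gamma, mu, alpha chain, kappa or lambda term, or whose gene name began with IGH, IGK, IGL or IGJ. Receptors, binding proteins and other family members that matched the words were left out, 8 probes in all. This gave 36 of 60305 probes, of which 32 passed the filter on dim probes, and the rule used the annotation alone except for A_72_P713930. That probe was named because it had been selected on its difference between breeds, so its breed differences are described here with no test.

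Creole pigs (CR), Large White pigs (LW) and their cross (F1) were slaughtered either at thermoneutrality (TN, labelled 24 °C) or after heat stress (HS, labelled 30 °C, with 32 °C for 5 days in the protocol text). There were 5 CR TN pigs and 6 pigs in each of the other 5 groups. The label of each sample gives 1 animal, so replicates were separate pigs, but pen, slaughter day and parents were not in the labels. Per the methods, pens held several pigs of 1 breed and littermates were spread over the pens, so pigs of a group can share a pen or parents. The fits used here treat them as independent. The study's own model had random terms for pen, slaughter day, father and mother. The present fits lack those terms, so their SE and adjusted p values can be too small. Per the methods, HS pigs were slaughtered at the full 5 days or somewhat before. TN pigs were slaughtered before the temperature rose, and the paper reports a lower feed intake in the heat. Climate, time of sampling and feed intake can therefore not be told apart. Age was not in the labels.

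Levels are log2 of the quantile-normalised median spot intensity, and a difference of 1 is a 2-fold change. Between 55.2% and 68% of probes lay well above background on each array, the F1 TN arrays being the dimmest, with a median 75th percentile of the processed signal of 152 against 250 in F1 HS. Levels of different probes are not comparable with each other. In whole blood, fewer cells of a type and less RNA per cell cannot be told apart.

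An antibody is built from a pair of heavy chains and a pair of light chains. Each chain has a variable end, assembled from V and J segments, with D segments as well in heavy chains, and different from clone to clone of B cells, and a constant end that sets the class, gamma for IgG, mu for IgM and alpha for IgA. IgM is carried on the surface of resting B cells, IgG and IgA are made after class switching, and plasma cells secrete all of them in quantity. The J chain links IgM and IgA into larger assemblies. Light chains are kappa or lambda, and the lambda-like genes include parts of the surrogate light chain of B cell precursors. The array held 3 IgA constant region probes, 1 IgM probe, 1 J chain probe, 2 lambda light chain probes, 2 lambda-like probes and 12 probes described as VDJ regions of single clones. There were also 13 probes of the IgG heavy chain gene LOC396781, 1 IgG clone probe and A_72_P713930, described as the Ig gamma 1b constant region. No probe of a kappa chain was found by the rule.

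The sequences show what these probes can tell apart. A_72_P713930 and A_72_P711793, a LOC396781 probe, both read as the stretch where the first constant domain of the gamma chain runs into the hinge. This place and the framework named further on come from general knowledge of these chains, and were not checked against a reference sequence here. They share 12 bases before and 32 bases after a stretch of 15 bases, shown in capitals, that differs between them. Both are printed 5′ to 3′ because the probes gave unlike results between breeds. Whether that stretch accounts for this was not tested.
A_72_P713930: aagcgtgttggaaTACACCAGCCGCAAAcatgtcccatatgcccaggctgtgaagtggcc
A_72_P711793: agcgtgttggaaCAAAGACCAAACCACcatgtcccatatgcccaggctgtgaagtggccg

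Of the 13 LOC396781 probes, 10 shared 15 or more bases with a probe described as a VDJ region, and 3 did not. The pair below shares 49 bases, in capitals, although its members are described as IgG heavy chain and as a VDJ clone. The stretch reads as the third framework of the variable region, which heavy chains of every class can carry, and the 10 probes cannot be taken to read IgG alone. All 10 are assigned to 1 gene and are not independent of each other. The IgG clone probe, A_72_P180671, shares 20 bases with the VDJ clone probe A_72_P413903. It cannot be taken to read IgG alone either.
A_72_P710376: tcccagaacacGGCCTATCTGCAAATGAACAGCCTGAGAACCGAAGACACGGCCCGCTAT
A_72_P755264: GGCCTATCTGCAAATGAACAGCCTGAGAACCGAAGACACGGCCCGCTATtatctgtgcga

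The chain that each of the following probes reads is the class it stands for in the results. The first is from LOC396781 and shares no such run with a VDJ probe, the next are the IgM and IgA probes, and the last is the J chain probe.
A_72_P152696: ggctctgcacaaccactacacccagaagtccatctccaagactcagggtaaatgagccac
A_72_P776097: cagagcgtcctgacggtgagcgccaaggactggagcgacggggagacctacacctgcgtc
A_72_P757592: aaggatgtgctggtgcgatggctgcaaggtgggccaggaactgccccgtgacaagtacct
O14560: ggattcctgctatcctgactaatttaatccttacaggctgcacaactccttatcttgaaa

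The lambda probes also share sequence across names. The IGLL1 probe and A_72_P444310, described as a lambda constant region, have 22 bases in common, in capitals.
O7009: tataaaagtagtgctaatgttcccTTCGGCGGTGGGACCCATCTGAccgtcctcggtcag
A_72_P444310: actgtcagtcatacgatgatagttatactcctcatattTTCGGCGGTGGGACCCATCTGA

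A_72_P713930 separated the breeds. Its log2 level was 7.89, 7.95, 8.17, 8.99 and 9.12 in the 5 CR TN pigs. It ran from 7.93 to 9.69 in CR HS, with a median of 8.26. In F1 TN the lowest, median and highest were 8.84, 9.32 and 11.23, and in F1 HS they were 9.01, 10.74 and 11.12. In LW TN they were 9.07, 10.9 and 11.55, and in LW HS they were 9.78, 11.21 and 11.4. Of the 11 CR pigs, 9 lay below every LW pig, and 11 of the 12 LW pigs lay above every CR pig. The F1 pigs spanned the range, with 7 of 12 above every CR pig and 2 of 12 below every LW pig.

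CR was lower than LW by a fitted difference of -2.34 ± 0.3 (SE), which is 5.07-fold. F1 stood 1.67 ± 0.3 above CR and 0.68 below LW, a difference of -0.68 ± 0.29. These values chose the probe and are given as a description. Within slides the CR minus LW difference was -1.44, -2.68, -2.57, -2.61 and -2.16 on slides 1 to 5, each from 3 to 5 arrays. F1 minus the mean of CR and LW was 0.49 ± 0.25, also given with no test.

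Among the 32 retained probes, A_72_P713930 was the 1 that differed 2-fold or more between CR and LW, where 0.439% of all retained probes did so. The other 31 lay between -0.35 and 0.51, with a median absolute difference of 0.08. The largest of these was the J chain, at 0.51 ± 0.23 (SE). IgM stood at 0.36 ± 0.18, IGLL1 at 0.35 ± 0.21 and LOC100152327, annotated as a lambda-like chain, at 0.3 ± 0.19, all higher in CR. On the other side were A_72_P754780, a lambda variable region probe, at -0.35 ± 0.36, A_72_P413899 at -0.14 ± 0.15 and A_72_P180671, the IgG clone probe, at -0.14 ± 0.11. The value of A_72_P754780 was -0.64 without CR TN replicate 3, -0.19 without LW HS replicate 3 and -0.92 with 75th percentile scaling.

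The neighbouring probe A_72_P711793 did not follow this pattern. At TN its level was 10.83 ± 0.43 (SD, n = 5) for CR and 10.8 ± 0.43 (n = 6) for LW. At HS it was 11.29 ± 0.59 (n = 6) for CR and 11.16 ± 0.61 (n = 6) for LW. CR minus LW was 0.07 ± 0.21 (SE). The log2 difference between both probes on the same array was then taken in each pig, a measure chosen after the values were seen. It lay between -3.04 and -1.54 in CR, between -2.66 and 0.09 in F1 and between -2.29 and 0.69 in LW. It was below -2 in 10 of 11 CR pigs, in 1 of 12 F1 pigs and in 1 of 12 LW pigs. It was above -1 in 0 of 11 CR pigs, in 10 of 12 F1 pigs and in 11 of 12 LW pigs. The F1 pig below -2 was F1 HS replicate 1, at -2.66, and the LW pig was LW TN replicate 5, at -2.29. Only the change of this difference between pigs can be read, since each probe has its own brightness. The difference reuses the values that chose A_72_P713930, and the cuts at -2 and -1 were set with the values known. These counts are therefore a description and add no separate evidence of a breed difference.

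**Figure D1:**
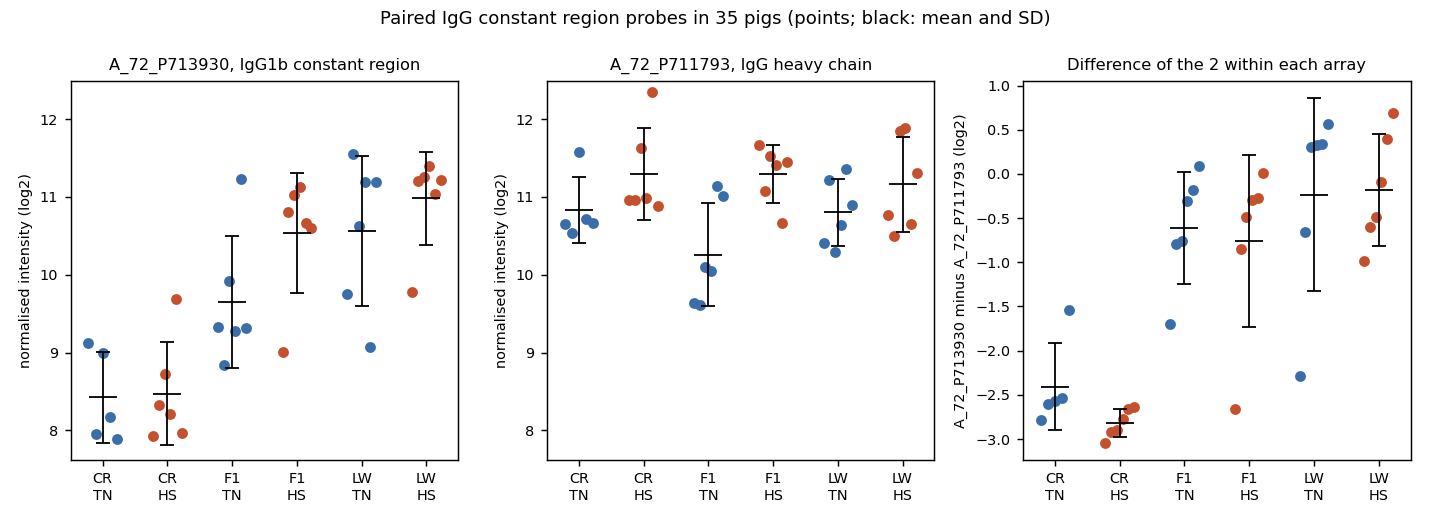
Log2 normalised intensity of A_72_P713930 and A_72_P711793 (left and middle) and their difference within each array (right), by breed and climate. Points are pigs (5 in CR TN, 6 in each other group) and black marks are the mean and SD. The left panel steps up from CR to LW, the middle panel does not, and 1 F1 HS pig at -2.66 and 1 LW TN pig at -2.29 sit with the CR pigs on the right.

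Most of the chains were higher after heat stress over the 3 breeds. In limma with breed in the model, 23 of the 32 retained probes rose and 1 fell (Benjamini-Hochberg over 41466 probes), where 19.5% of all retained probes rose and 13.9% fell. Without the filter, 20 of all 36 rose and 1 fell, where 12795 of all 60305 probes passed, 7338 of them higher in HS. The median difference over the 32 probes was 0.55 against 0.06 over all retained probes. The probes share genes and bases, so this count is not a count of separate genes.

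**Figure D2:**
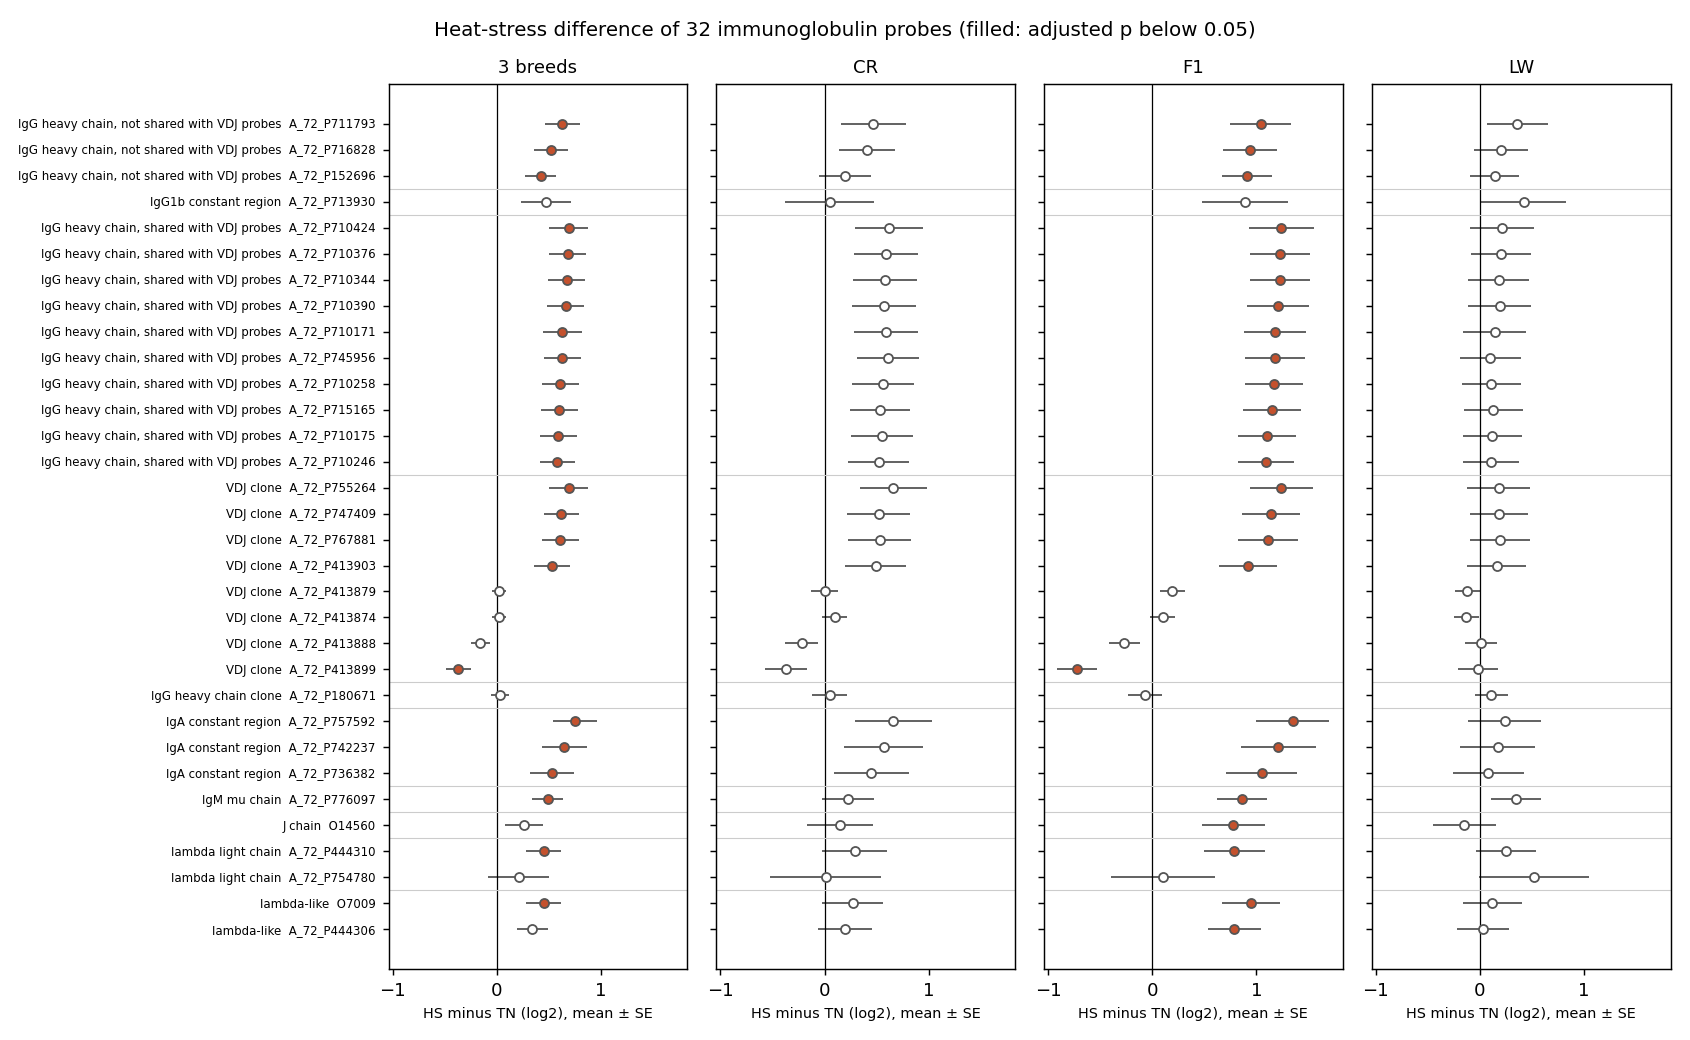
Fitted HS minus TN difference (log2, mean ± SE) of the 32 retained immunoglobulin probes over the 3 breeds and within CR, F1 and LW. Filled points passed an adjusted p of 0.05. In F1 the points that passed lie between 0.78 and 1.35, apart from A_72_P413899 at -0.72, and none passed in CR or LW.

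The largest rise was in the IgA constant region. IGHA probe A_72_P757592 read 12.35, 13.23, 13.27, 13.96 and 14.22 in CR TN, and its lowest, median and highest levels were 13.18, 14.08 and 15.08 in CR HS. In F1 TN they were 11.97, 12.94 and 13.66, and in F1 HS 13.82, 14.13 and 15.16. In LW TN they were 12.93, 13.68 and 14.76, and in LW HS 13.4, 13.87 and 14.44. The climates overlapped in CR and LW and did not overlap in F1. HS minus TN was 0.75 ± 0.21 (SE, adjusted p = 0.00859, limma), or 1.68-fold, and 14 of 18 HS pigs were above the TN mean of their breed. All 3 IGHA probes rose, by 0.53 to 0.75 (adjusted p from 0.00859 to 0.047, limma).

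The 3 LOC396781 probes that share no run with VDJ probes read the gamma chain and rose by 0.42 to 0.63 (adjusted p from 0.00726 to 0.0283, limma). A_72_P152696 rose by 0.42 ± 0.15 (SE), and 12 of 18 HS pigs were above their breed's TN mean. A_72_P716828 rose by 0.52 ± 0.16 and A_72_P711793 by 0.63 ± 0.17. A_72_P713930 stood at 0.47 ± 0.24 and did not pass (adjusted p = 0.132, limma). Its difference was 0.05 ± 0.43 in CR, 0.89 ± 0.41 in F1 and 0.42 ± 0.41 in LW, and passed in none of them. That of A_72_P711793 was 0.47 ± 0.31, 1.04 ± 0.29 and 0.36 ± 0.29 in that order, and passed in F1 alone.

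All 10 LOC396781 probes in the shared variable framework rose, by 0.58 to 0.69 (SE 0.17 to 0.19, adjusted p from 0.00636 to 0.0108, limma). A_72_P710424 had the largest rise of them, 0.69 ± 0.19 (SE). It read 11, 11.06, 11.07, 11.38 and 12.33 in CR TN, and the CR HS median was 12.11. The F1 median was 10.69 at TN and 12.1 at HS, and the LW median 11.5 at TN and 11.82 at HS. The VDJ clone probe A_72_P755264, which shares 47 bases with it, rose by 0.69 ± 0.19.

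IgM, read by A_72_P776097, rose by 0.49 ± 0.15 (SE, adjusted p = 0.0112, limma), and 14 of 18 HS pigs were above their breed's TN mean. Its levels in CR TN were 13.72, 14.4, 14.46, 14.5 and 15.41. They ran from 13.11 to 14.34 in F1 TN and from 14.4 to 14.81 in F1 HS, without overlap. In LW they ran from 13.62 to 14.65 at TN and from 13.69 to 15.03 at HS.

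The J chain, which joins IgM and IgA, stood at 0.26 ± 0.18 (SE) and did not pass (adjusted p = 0.266, limma). CR pigs had 10.67 ± 0.69 (SD, n = 5) at TN and 10.82 ± 0.44 (n = 6) at HS. F1 pigs had 10.01 ± 0.49 (n = 6) at TN and 10.79 ± 0.44 (n = 6) at HS. LW pigs had 10.3 ± 0.72 (n = 6) at TN and 10.15 ± 0.47 (n = 6) at HS. It was thus lower at HS than at TN in LW by its means, within the spread of the pigs.

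Of the lambda probes, IGLL1 rose by 0.45 ± 0.17 (SE, adjusted p = 0.039, limma) and A_72_P444310 by 0.45 ± 0.17 (adjusted p = 0.0449, limma). Both calls were near the threshold. Leaving out single arrays ended the first in 17 of 35 cases and the second in 20 of 35. LOC100152327 stood at 0.34 ± 0.15 (adjusted p = 0.0768, limma) and A_72_P754780 at 0.21 ± 0.29 (adjusted p = 0.605, limma), the latter with 1 value set to missing in LW HS. Outside the rule by their wording were 3 probes annotated as IGL@, of which A_72_P774246 stood at 0.48 ± 0.19, A_72_P791495 at 0.57 ± 0.25 and A_72_P716913 at 0.63 ± 0.27. An Ig delta chain probe, also outside the rule, was well above background on 0 of 35 arrays.

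**Figure D3:**
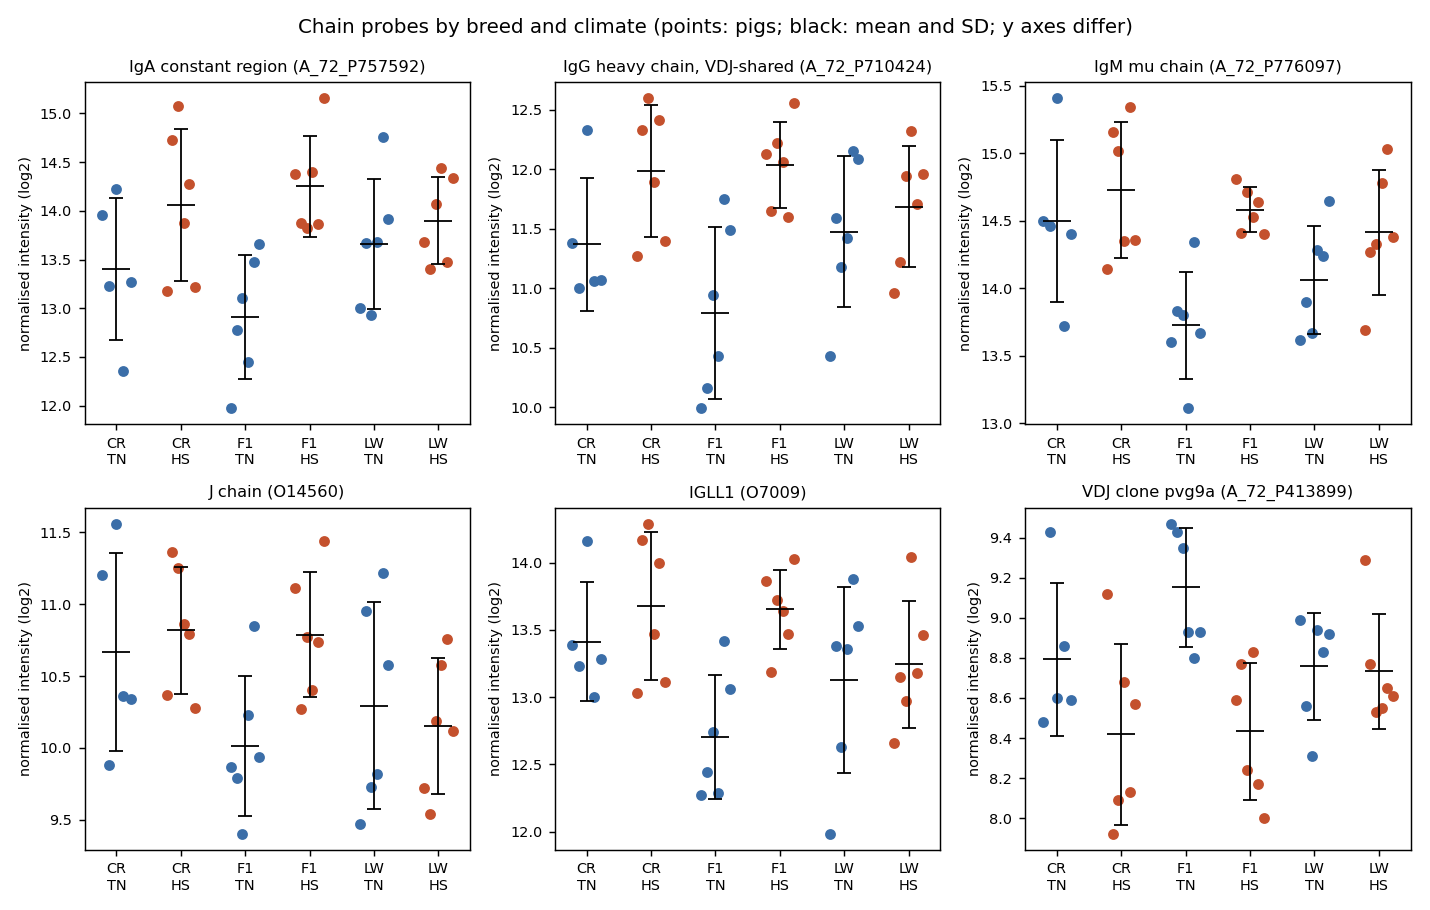
Log2 normalised intensity of 6 chain probes by breed and climate. Points are pigs (5 in CR TN, 6 in each other group), black marks are the mean and SD, and the y axes differ. F1 TN has the lowest mean of the 6 groups for IgA (12.9), A_72_P710424 (10.79), IgM (13.72), the J chain (10.01) and IGLL1 (12.71), and the highest for A_72_P413899 (9.15).

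The 12 VDJ clone probes fell into sets. Of the 8 that were retained, 4 rose, A_72_P755264, A_72_P747409, A_72_P767881 and A_72_P413903, where 19.5% of all retained probes rose. A_72_P755264, A_72_P767881 and A_72_P747409 share 49, 26 and 23 bases with LOC396781 probes that also rose. Their rises are therefore not separate observations of single clones. Another 3, A_72_P413879, A_72_P413874 and A_72_P413888, did not pass, with mean levels of 5.91, 5.32 and 5.66. The 4 that were not retained, A_72_P413983, A_72_P413958, A_72_P413924 and A_72_P413999, were well above background on 0 to 4 of 35 arrays.

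A_72_P413899, designed on clone pvg9a, was the 1 member that fell, and its sequence is shown because it went against the others.
A_72_P413899: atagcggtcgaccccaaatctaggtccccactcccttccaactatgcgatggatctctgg
It read 8.48, 8.59, 8.6, 8.86 and 9.43 in CR TN and 7.92 to 9.12 in CR HS. It read 8.8 to 9.47 in F1 TN and 8 to 8.83 in F1 HS, and 8.31 to 8.99 in LW TN and 8.53 to 9.29 in LW HS. HS minus TN was -0.37 ± 0.12 (SE, adjusted p = 0.018, limma), with 3 of 18 HS pigs above their breed's TN mean. The difference was -0.37 in CR, -0.72 in F1 and -0.02 in LW. The probe was well above background on all 35 arrays although designed on 1 clone, and which transcript it reads was not tested.

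Within single breeds, members passed the threshold in F1 alone. Within F1, 25 of 32 probes rose and 1 fell, where 21% of all retained probes rose and 16.9% fell, and the median difference was 1.04 against 0.14 over all retained probes. IGHA probe A_72_P757592 rose by 1.35 ± 0.35 (SE, adjusted p = 0.0039, limma), or 2.55-fold, and A_72_P710424 by 1.24 ± 0.31 (adjusted p = 0.00306, limma). IgM rose by 0.86 ± 0.24, IGLL1 by 0.95 ± 0.28, LOC100152327 by 0.79 ± 0.25 and the J chain by 0.78 ± 0.3 (adjusted p = 0.0415, limma). A_72_P413899 fell by 0.72 on the log2 scale (adjusted p = 0.00497, limma).

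Within CR, 0 of 32 passed in limma, with 2 at an unadjusted p under 0.05, and within LW 0 passed, with 0 at an unadjusted p under 0.05. In both breeds 0% of all retained probes passed. This count in CR changed with the arrays used. Members at an unadjusted p under 0.05 numbered 16 without CR HS replicate 1 and 16 without CR TN replicate 3. They numbered 15 without CR HS replicate 6 and 17 with array weights. In each of these limma fits 0 passed the adjusted threshold. CR HS replicate 1 was lowest of its group for 18 of 32 probes, CR HS replicate 6 for 10, and CR TN replicate 3 was highest for 28. Leaving out such pigs widens the difference. For no fit in this report was the share of all retained probes at an unadjusted p under 0.05 counted. The median difference over the 32 probes was 0.48 in CR and 0.15 in LW. The difference between breeds itself did not pass for any member in limma's interaction test, with 3 at an unadjusted p under 0.05 and a smallest adjusted p of 0.321, and 0% of all retained probes passed. The response is therefore not shown to differ between breeds. When the F1 pigs were left out, 0 of 32 passed for HS minus TN in limma, with 0 at an unadjusted p under 0.05, and the median difference was 0.31. Of all 41466 retained probes 0 passed without the F1 pigs. That fit had fewer arrays, and no matching fit without CR or LW was run. The loss of calls can therefore not be assigned to F1. The 24 members that passed over the 3 breeds had the same sign in each breed.

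Other values moved with the F1 contrast. Of 20 measured erythroid genes 11 fell within F1, where 18.8% of all measured genes fell. The mean of the 20 was 10.73 ± 0.72 (SD, n = 6) in F1 TN and 9.59 ± 0.65 (n = 6) in F1 HS. With that mean as a covariate, 0 of 32 members passed over the 3 breeds, with 11 at an unadjusted p under 0.05, and 0 passed within F1, with 21 at an unadjusted p under 0.05. A_72_P757592 then stood at 0.39 over the breeds and 0.85 within F1, and A_72_P710424 at 0.46 and 0.96. Of all 41466 retained probes, 2 passed in that fit over the 3 breeds and 2132 within F1, of which 510 rose. The F1 TN arrays were also the dimmest. The part of brightness in the result was not tested.

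The difference was present with slide in the model. Each of the 5 slides held 4 to 8 arrays, and 4 of them held all groups. With slide as a block 24 members passed over the 3 breeds and 26 within F1, among 14429 and 16654 of all 41466 retained probes. HS minus TN of A_72_P757592 lay between 0.49 and 1.71 within those 4 slides, that of A_72_P710424 between 0.53 and 1.22, that of IgM between 0.27 and 1.2 and that of A_72_P413899 between -0.53 and -0.14. Within F1 the slides gave 0.3 to 2.17 for A_72_P757592, -0.02 to 2.06 for A_72_P710424 and 0.63 to 1.08 for IgM.

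A_72_P713930 was not tested between F1 and the parent breeds. Of the other members, 0 of 31 passed for F1 minus CR in limma, with 1 at an unadjusted p under 0.05, where 0.181% of all retained probes passed. That 1 was IgM, at -0.45 ± 0.18 (SE). For F1 minus LW 0 of 31 passed, with 0 at an unadjusted p under 0.05, against 0.0145% of all. For F1 minus the mean of CR and LW 0 of 31 passed, with 0 at an unadjusted p under 0.05, against 0.0603% of all. The members' median differences were -0.23, -0.16 and -0.2 in that order.

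Some pigs were at the end of their group for most of the probes. CR TN replicate 3 was the highest CR TN pig for 28 of 32 probes, F1 TN replicate 5 the highest of its group for 26 of 32 and LW HS replicate 4 for 24 of 31. F1 TN replicate 1 was the lowest of its group for 20 of 32, LW TN replicate 1 for 21 of 32 and CR TN replicate 4 for 19 of 32. The highest counts in the other groups were 20 for CR HS replicate 3, 20 for F1 HS replicate 6 and 18 for LW TN replicate 5. The same pig was thus at the end of its group for probes of several chain classes. Many of these probes share bases and are not separate observations. How often these pigs were at the end of their group over all retained probes was not counted, so shifts of a whole array cannot be told apart.

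**Figure D4:**
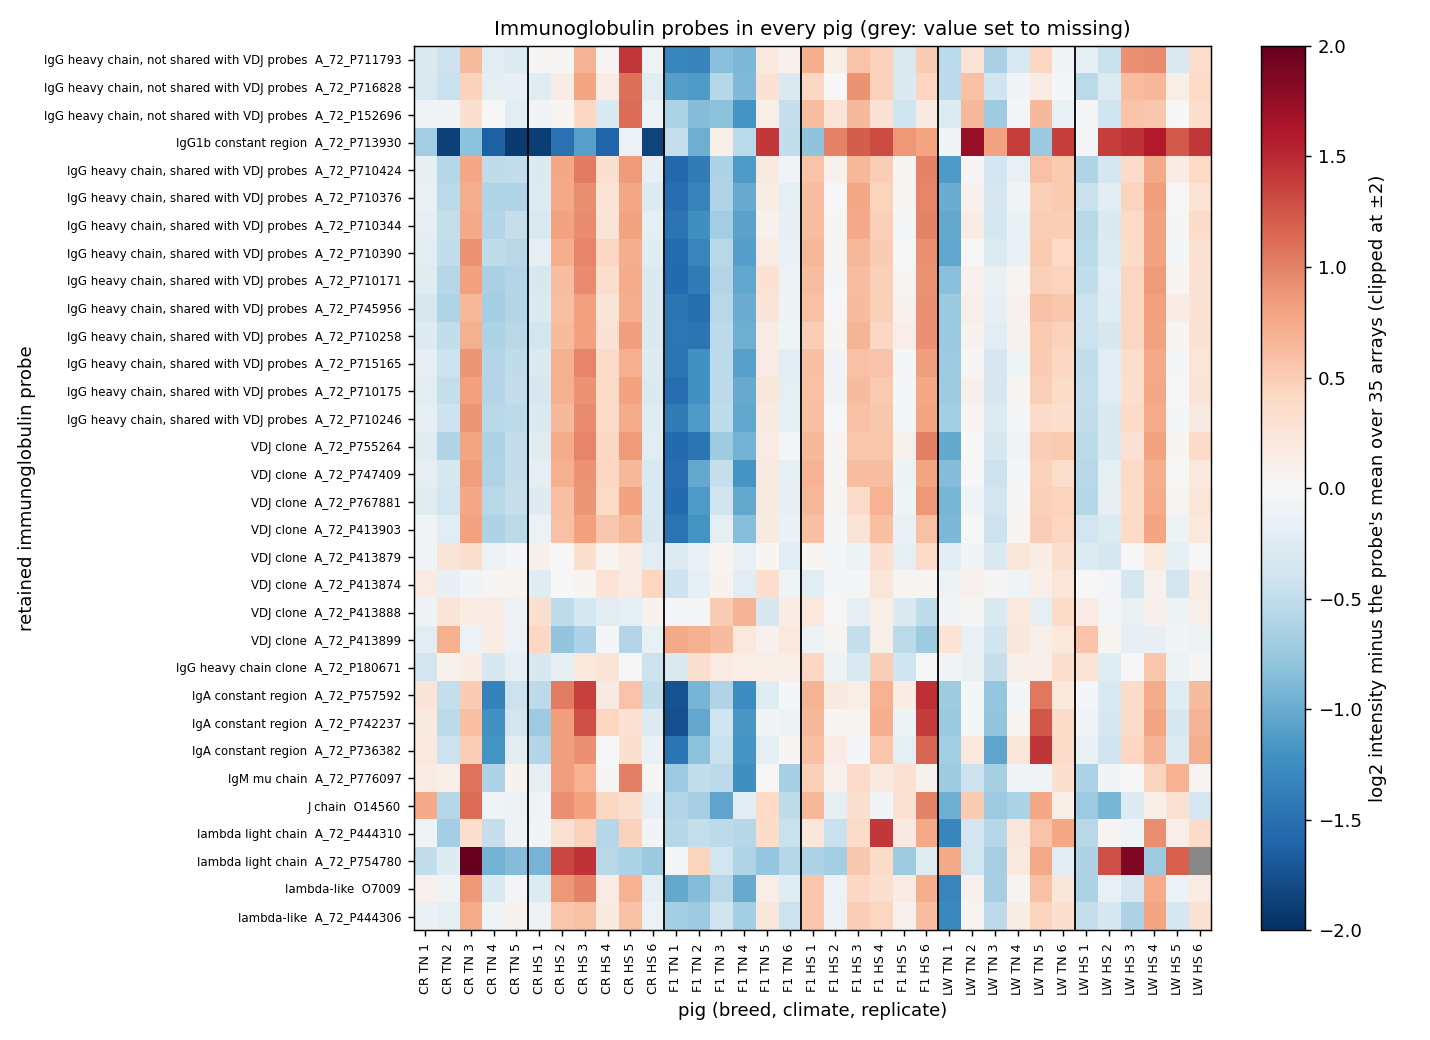
Log2 intensity of each of the 32 retained probes in each of 35 pigs, minus the probe's mean over all pigs, with colours clipped at ±2 and the missing value in grey. A column of mostly 1 colour, such as CR TN 3 (highest of its group for 28 of 32 probes), is a pig with many probes high or low. The row of A_72_P713930 is low across CR.

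Genes of B cells moved the same way. Of 20 listed B cell genes 13 were measured, and 7 rose and 0 fell over the 3 breeds (median 0.31), where 23.9% of 9247 measured genes rose and 15.5% fell. BLNK, an adaptor of the B cell receptor, rose by 0.31 ± 0.08 (SE), CD37, a tetraspanin of mature B cells, by 0.4 ± 0.11 and CD72, a B cell co-receptor, by 0.32 ± 0.1. Within F1, 8 of the 13 rose and 0 fell (median 0.5), where 24.8% of measured genes rose and 18.8% fell. The mean of the list was 8.46 ± 0.21 (SD, n = 6) in F1 TN and 8.93 ± 0.24 (n = 6) in F1 HS. With that mean as a covariate, added after the data were seen, 0 of 32 members passed over the 3 breeds, with 6 at an unadjusted p under 0.05, and 0 passed within F1, with 19 at an unadjusted p under 0.05. Of all 41466 retained probes 1 passed in that fit over the 3 breeds and 2274 within F1. A_72_P757592 then stood at 0.88 within F1 and A_72_P710424 at 0.91.

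Of 20 listed genes of plasma cells and antibody secretion 12 were measured, and 3 rose and 0 fell over the 3 breeds (median 0.17). This is 25%, near the 23.9% of all measured genes that rose. FKBP11, a folding factor of the secretory pathway, rose by 0.32 ± 0.1 (SE), POU2AF1, a co-activator of immunoglobulin promoters, by 0.37 ± 0.12 and CD27, a marker of memory B cells and T cells, by 0.32 ± 0.13. DERL3, on the same list, stood at -0.24 ± 0.12 and did not pass. Within F1, 3 of the 12 rose and 1 fell, where 24.8% of measured genes rose and 18.8% fell. The 1 that fell was DERL3, at -0.63 (adjusted p = 0.00858, limma). Of 10 measured genes of rearrangement and class switching 0 passed in limma over the 3 breeds, with 3 at an unadjusted p under 0.05. These were MSH6, a mismatch repair factor, at -0.12 ± 0.05, RAG1, a recombinase subunit, at -0.16 ± 0.08, and UNG, a uracil glycosylase, at 0.13 ± 0.06.

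Other lists are to be read against the 23.9% of all measured genes that rose and the 15.5% that fell over the 3 breeds. Of 8 measured immunoglobulin receptor and transport genes 3 rose and 1 fell. PIGR, which carries polymeric IgA and IgM across epithelia, fell by 0.46 on the log2 scale, with an SE of 0.13. FCGRT, the receptor that spares IgG from breakdown, rose by 0.24 ± 0.07 and FCGR2B, an inhibitory IgG receptor, by 0.23 ± 0.09. Of 10 measured T cell genes 4 rose and 0 fell (median 0.21). Neutrophil genes gave 1 rise of 11, monocyte genes 2 of 6 and platelet genes 0 of 9. Of the 20 erythroid genes, 12 fell over the 3 breeds (median -0.62).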

How the data were processed

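Cy3-labelled cRNA from whole blood RNA was hybridised to 35 one-colour Agilent arrays, and the authors deposited spot intensity from Feature Extraction (10.10.1.1) and a table of log2 values from limma. Here the intensity (gMedianSignal, no background correction) was quantile-normalised over 61625 spots, log2-transformed, and control spots dropped. Outlier-flagged spots, 217 in all, were set to missing and 0 spots were saturated. Probes well above background on at least 0.5 of the arrays of a group were retained (41466 of 60305). The recomputed and deposited log2 values differed by a median of 0.02 over 39072 probes. Contrasts were fitted in R 4.3.3 with limma 3.58.1, additively for breed and climate or over 6 group means, two-sided, with Benjamini-Hochberg adjustment at 0.05. List genes were means of retained probes matched to pig gene tables, and 37358 probes matched no symbol. Scripts were tested on simulated data.

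The members and gene lists were chosen with earlier results of these data known. Named members were A_72_P713930, the brightest probe of each chain class and those with the largest differences that passed. The number of arrays limits the precision.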

Additional observations from a re-analysis of the deposited data

Results flagged for a closer look

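A sample was far from the others of its group, by Dixon's criterion, in 12 of 102 sets examined (named members, and the difference of the paired IgG probes, in 6 groups). Chance gives about 1 in 20 for separate sets. These sets share pigs and probes with common bases, so no excess can be read from the count.

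For A_72_P713930, F1 HS replicate 1 read 9.01 with the others between 10.6 and 11.12, and LW HS replicate 1 read 9.78 with the others between 11.04 and 11.4. The within-array difference of A_72_P713930 and A_72_P711793 was -2.66 in F1 HS replicate 1, with the others between -0.85 and 0.01, and -1.54 in CR TN replicate 1, with the others between -2.78 and -2.54.

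CR TN replicate 3 stood high for A_72_P755264 (12.45, others to 11.42), A_72_P710424 (12.33, others to 11.38), A_72_P754780 (8.67, others to 5.98) and LOC100152327 (13.08, others to 12.4). F1 TN replicate 5 stood high for A_72_P444310 (8.48, others to 7.68) and LOC100152327 (12.57, others to 11.94). For A_72_P413899, LW HS replicate 1 read 9.29 with the others to 8.77. For A_72_P180671, F1 TN replicate 1 read 8.14 with the others from 8.56. No cause of these values was tested.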

How the results depend on the processing

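The number of members past the threshold for HS minus TN over the 3 breeds was 24. It lay between 21 and 24 with normexp correction, 75th percentile scaling, the authors' values, no filter, a stricter filter, slide terms or array weights, and between 20 and 25 when single arrays were left out. It was 0 with the erythroid list as a covariate, 0 without F1 pigs and 0 with the B cell list as a covariate, added after the data were seen. Within F1 it was 26, from 18 with array weights to 27 with slide as a fixed effect, 23 to 27 without single arrays, and 0 with either covariate. In F1, 75th percentile scaling put 7267 of 15115 calls over all probes higher in HS, against 8701 of 15720 in the main scaling, and array weights put 4796 of 10087 higher. The count stayed at 0 within CR, within LW, for the interaction and for the F1 contrasts. The CR minus LW difference of A_72_P713930 ranged from -2.5 to -2.24 over the alternatives and from -2.48 to -2.25 without single arrays, and the members' median HS minus TN from 0.31 to 0.61. Differences that did not pass turned sign for A_72_P754780 (-0.05 with the B cell list) and the J chain (0 without F1 pigs). For A_72_P180671, at 0.03, single arrays left out gave 0 to 0.06, below 0 in 2 cases. A_72_P152696 lost its call without F1 TN replicate 4 (0.37, adjusted p = 0.0521, limma).

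No paired analysis was possible because replicate numbers were given in accession order and pair no animals. Averaging members of identical sequence was not run, since no 2 members had the same full sequence.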
